A study of Rattus norvegicus with 4 samples.

Results

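Genes of protein folding in the endoplasmic reticulum (ER), and of the sensors that detect unfolded protein there, were followed in the rat uterus before implantation. The 50 genes were listed by name for their known roles. Of these, 48 had a probe set that carried the listed symbol alone, Vimp was found under its current symbol Selenos through its gene number, and Derl2 was not analysed here. This left 49 members among 18166 genes tested, each read from 1 probe set, and all 49 are described. The uteri came from Sprague Dawley rats of 10 to 12 weeks on day 5 of pregnancy. In the ormeloxifene group the rats had been fed ormeloxifene on day 1, at 1.25 mg per kg made up in gum acacia; in the vehicle group they had received vehicle alone. Each group held 2 arrays, labelled biological replicates 1 and 2, and each array measured total RNA of uterine tissue. How many rats gave the RNA of each array was not given in the sources used here.

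Ormeloxifene is a compound that binds oestrogen receptors and is taken to prevent pregnancy. The comparison asks whether transcripts of the ER folding system differed between the groups shortly before the embryo attaches. Values are log2 signals after quantile normalization. A difference is the ormeloxifene mean minus the vehicle mean, given with its standard error from limma, and a difference of 1 is 2-fold. A gene was called at an adjusted p under 0.05, with Benjamini-Hochberg adjustment over all 18166 genes. The level of one probe set says nothing of another gene's level, because each probe set has its own brightness. Signals are thus not read as an order of levels between genes. Sums of linear signal over a list compare arrays only, and the brightest probe sets weigh most in them. Markers of stroma, smooth muscle and epithelium were all read on these arrays, 8, 7 and 10 of them, and are given at the end.

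Proteins bound for secretion or for membranes enter the ER through the Sec61 channel, are folded there by chaperones and disulphide isomerases, and are sent to the cytosol for destruction when folding fails. Unfolded protein in the ER activates IRE1 (encoded by Ern1), PERK (Eif2ak3) and ATF6. IRE1 splices the Xbp1 messenger, PERK slows translation and favours ATF4, and ATF6 is cut to release a transcription factor. ATF6 and spliced XBP1 raise the transcription of many chaperone genes. In the uterus, glandular epithelium and decidualising stroma are secretory cells with much rough ER. The splicing of Xbp1 and the cleavage of ATF6 are not visible in a total signal per gene.

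The element through which ATF6 acts on chaperone promoters, the ER stress response element (ERSE), is CCAAT and CCACG with 9 bases of any kind between them. RefSeq promoters of GRCr8, each 250 bases before to 50 bases after a gene's start, were searched on both strands. An entry was found for 40 of the 49 measured members, and 9 of the 40 (22.5%) held an ERSE against 0.0657% of all 33469 promoters. The related ERSE-II, ATTGG and CCACG with 1 base of any kind between them, was in 3 members (7.5%) and 0.0508% of all promoters. The members were listed for known roles and are part of all promoters, so these shares are a description and were not tested. The stretches with these matches are shown because they are the feature that members of different roles share. They are 5′ to 3′ on the strand of the gene, end before its start, and have the fixed letters of the element in capitals. Where the element lies on the other strand, the capitals read CGTGG before ATTGG for ERSE and CGTGG before CCAAT for ERSE-II.
Hspa5: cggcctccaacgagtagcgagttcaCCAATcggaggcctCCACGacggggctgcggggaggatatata
Hsp90b1: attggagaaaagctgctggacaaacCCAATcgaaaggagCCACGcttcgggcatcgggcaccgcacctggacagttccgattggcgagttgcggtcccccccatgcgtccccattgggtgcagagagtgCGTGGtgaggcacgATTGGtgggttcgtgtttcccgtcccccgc
Creld2: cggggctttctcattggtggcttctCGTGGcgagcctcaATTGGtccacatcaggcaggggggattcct
Dnajc3: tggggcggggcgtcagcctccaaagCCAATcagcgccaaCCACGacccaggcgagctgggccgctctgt
Calr: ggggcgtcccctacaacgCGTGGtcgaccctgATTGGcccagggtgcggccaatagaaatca
Canx: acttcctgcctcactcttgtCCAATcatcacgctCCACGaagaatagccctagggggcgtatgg
Xbp1: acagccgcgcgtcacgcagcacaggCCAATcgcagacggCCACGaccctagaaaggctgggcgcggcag
Derl3: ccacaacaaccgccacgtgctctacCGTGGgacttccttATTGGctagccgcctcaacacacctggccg
Hyou1: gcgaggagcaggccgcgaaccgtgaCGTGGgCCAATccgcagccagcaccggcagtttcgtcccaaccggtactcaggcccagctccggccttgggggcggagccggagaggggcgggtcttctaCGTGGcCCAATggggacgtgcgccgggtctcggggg

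In GRCr8 these stretches lie at chr3:38452948-38453015 (plus strand) for Hspa5, chr7:23012322-23012494 (minus) for Hsp90b1 and chr7:121789214-121789282 (plus) for Creld2. Those of Dnajc3 and Calr are at chr15:102432509-102432577 (plus) and chr19:40213117-40213178 (plus). Canx follows at chr10:35158044-35158107 (minus), Xbp1 at chr14:84604533-84604601 (plus), Derl3 at chr20:12766576-12766644 (minus) and Hyou1 at chr8:53602669-53602829 (plus). All lie upstream of the annotated start of their gene. Hsp90b1, the ER form of Hsp90, had 2 copies of ERSE and Hyou1, a large Hsp70-related chaperone, had 2 copies of ERSE-II. The other matches were an ERSE in Ero1b and an ERSE-II in each of Dnajb11 and Herpud1. TGACGTGG, the core of the element bound by XBP1 and ATF6, was in Hyou1, Dnajc10 and Txndc11 and in 0.595% of all promoters; in Hyou1 it overlaps the more distant ERSE-II. TGATGNAA, a core of sites for ATF4, was in Herpud1 alone among the 40 and in 3.98% of all promoters. A match says that the letters are present and not that a factor is bound. Of the measured members, Manf, Pdia3, Pdia6, Ero1a, Sec61a1, Derl1, Os9, Ern1 and Atf6 had no entry.

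The ER folding genes differed little between ormeloxifene and vehicle, and none was called. By limma 0 of the 49 members passed the adjusted threshold, with an adjusted p of 1.00 for each, and 0% of all genes tested were called. At an unadjusted p under 0.05 stood 0 members, against 1.08% of all genes on the lower side and 1.12% on the higher side. The differences ran from -0.45 for Hsp90b1 to 0.32 for Derl3 and for Creb3l2, with standard errors between 0.20 and 0.30. The 95% interval held 0 for all 49, and for 48 it lay wholly between -1 and 1. A 2-fold difference in either direction is thus outside the interval of each member but Hsp90b1 (-1.15 to 0.25). Differences of the size seen in the members could not be told from 0 with 2 arrays a group. For 1 gene in this design, the smallest p that exact permutation can reach is 0.333. The p-values and standard errors use spread between the labelled biological replicates, which limma moderates with the spread over all genes. Degrees of freedom rose from 2 to 7.55 by this. For Hspa5 the replicate standard deviations were 0.03 and 0.01, while its standard error was 0.20.

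Most members nevertheless lay on the lower side. Of the 49, 35 (71.4%) were lower with ormeloxifene, against 46.6% of all genes tested, and 14 were higher. Their median difference was -0.12, against 0.02 over all genes and 0.01 over the 4542 genes above the 75th percentile of signal. The groups did not overlap in 13 members. In 11 (22.4%) both ormeloxifene arrays lay below both vehicle arrays, as in 11.8% of all genes, and in 2 (4.08%) both lay above, as in 13.9% of all genes. On the values as deposited 40 members were lower and 9 higher, at a median of -0.13, where 47.5% of all genes were lower. With arrays centred on their medians 40 were again lower and 9 higher, at a median of -0.15. There 51.5% of all genes were lower.

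This lower median depended most on the second vehicle array. Vehicle replicate 2 had the highest value of the 4 arrays in 29 of the 49 members, where it was highest in 28.3% of all genes. The other 3 arrays had similar medians: the median of the members' deviations from their own means was -0.05 and -0.06 in ormeloxifene replicates 1 and 2, -0.06 in vehicle replicate 1 and 0.13 in vehicle replicate 2. Without vehicle replicate 2 the members' median difference was 0.00, with 24 lower and 25 higher. Over all genes the median was then 0.04, and 45% were lower. Without any one of the other arrays the members' median stayed between -0.09 and -0.16, with 32 to 40 members lower. Single members moved with single arrays too: in 45 of the 49, leaving out some array changed the sign or moved the difference by over 1.5 times. The other 4 were Hspa5, Dnajb11, Manf and Sec61a1. These fits carried no term for the replicate number. A step between the numbers that both groups share thus also moves the differences and enters the count of 45. The share over all genes is not given.

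**Figure D1:**
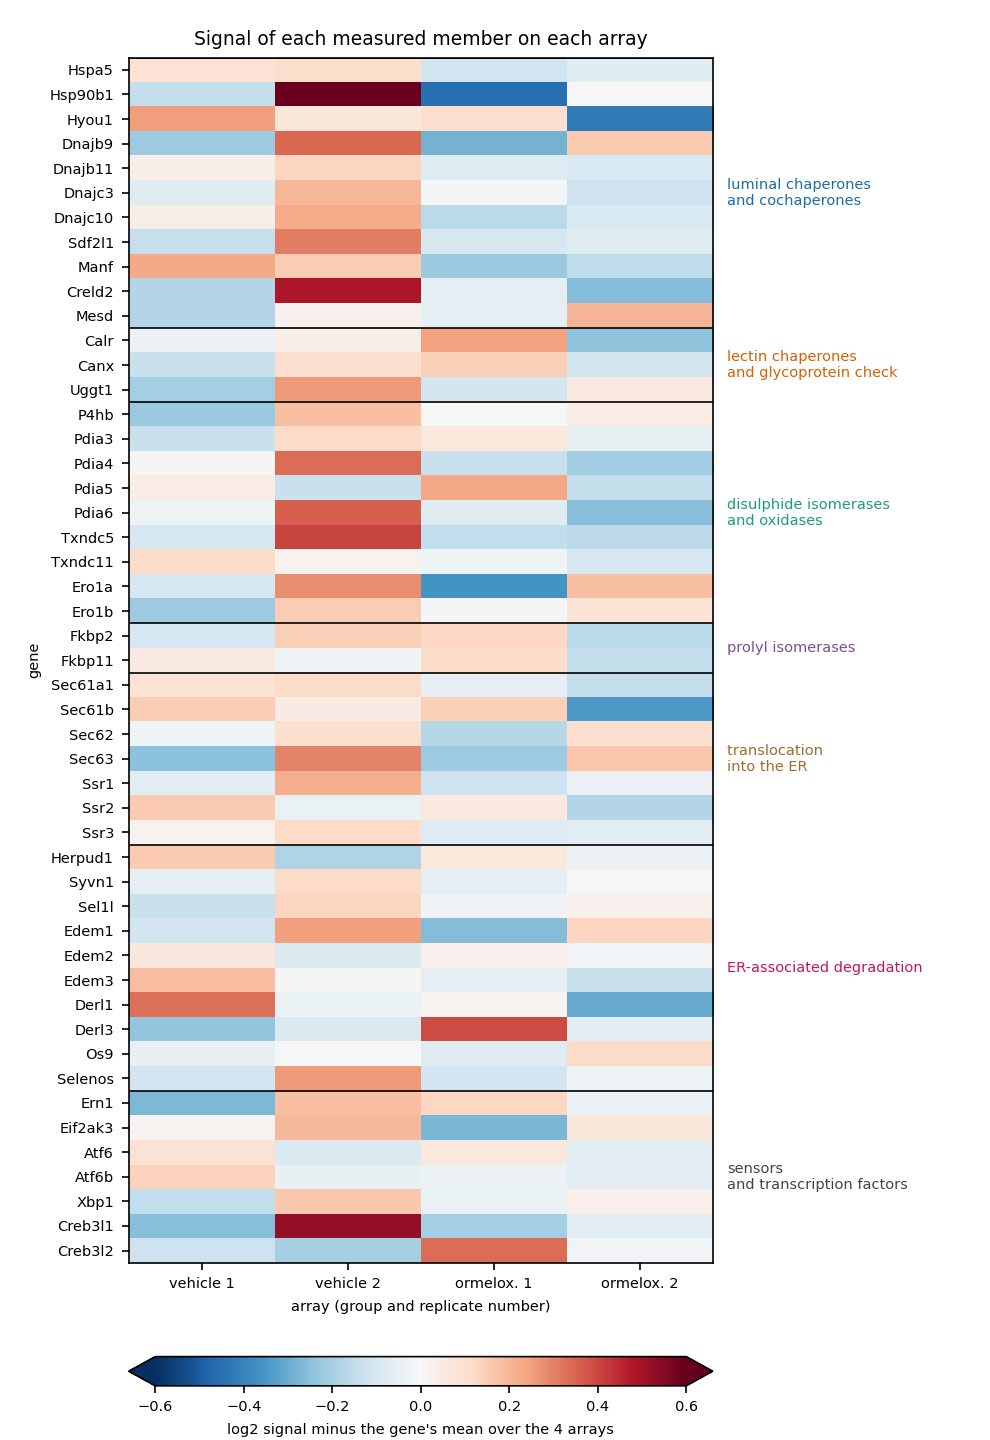
Log2 signal of each measured member (rows, grouped by role) on each of the 4 arrays (columns), as the deviation from that gene's mean over the arrays. Red cells gather in the column of vehicle replicate 2, which is the highest array for 29 of 49 members.

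**Figure D2:**
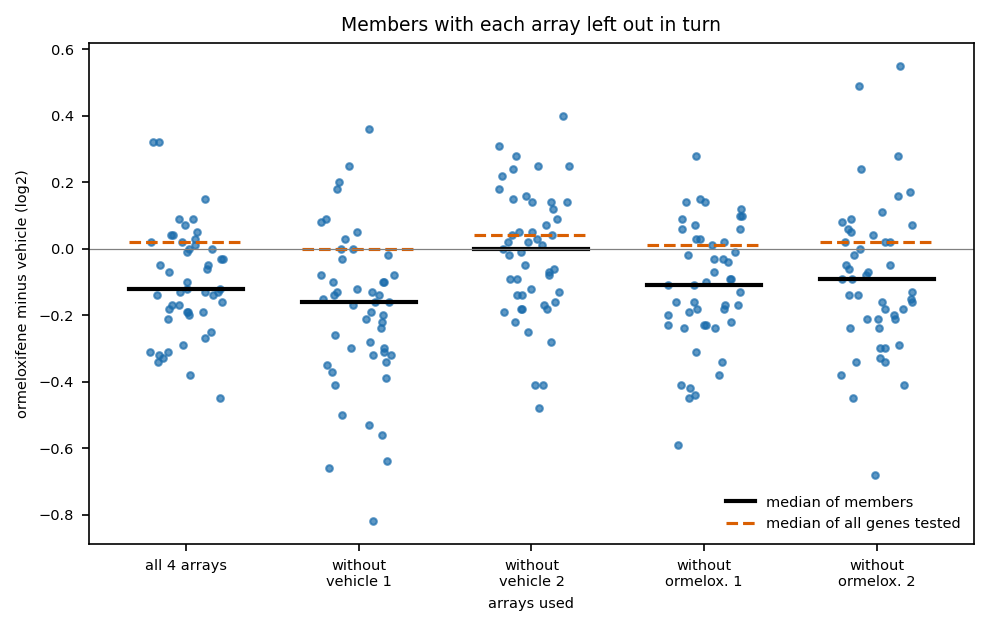
Difference of each member, ormeloxifene minus vehicle in log2 (points), with all 4 arrays and with each array left out in turn. The black line is the median of the members and the dashed line that of all genes tested; the members' median is -0.12 with all arrays and 0.00 without vehicle replicate 2.

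Arrays with the same replicate number shared exactly equal deposited values at many probe sets, and arrays of different numbers shared none, so each member was also read within its number. Within number 1, 28 members (57.1%) were lower with ormeloxifene, at a median of -0.03. There 43.7% of all genes were lower, at a median of 0.04. Within number 2, 41 members (83.7%) were lower, at a median of -0.18, where 52.7% of all genes were, at a median of -0.02. In 23 members (46.9%) the sign was negative within both numbers, as in 24.4% of all genes, and in 3 (6.12%) it was positive within both, as in 27.9% of all genes. The signs were opposite in 23 members. From vehicle replicate 1 to vehicle replicate 2 the members differed by a median of 0.19, more than between the groups, and from ormeloxifene replicate 1 to 2 by -0.02.

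**Figure D3:**
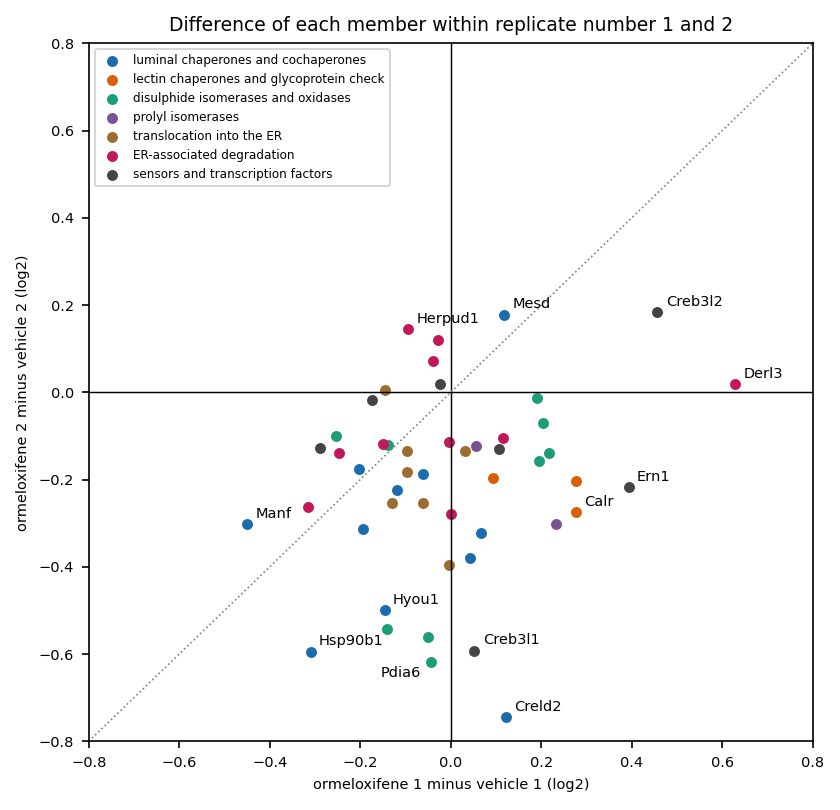
Difference of each member within replicate number 1 (horizontal) and within replicate number 2 (vertical), ormeloxifene minus vehicle in log2, coloured by role. Points lie to both sides of 0 along the horizontal axis (28 of 49 below it) and mostly under 0 on the vertical axis (41 of 49).

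The chaperones of the ER lumen and their cochaperones held the members with the lowest differences. Of 11 measured, 10 were lower and Mesd, a chaperone for receptors of the LDL receptor family, was higher (0.15). Their median was -0.19, with -0.12 within number 1 and -0.31 within number 2. Without vehicle replicate 2 it was -0.08, with 6 lower and 5 higher, and without vehicle replicate 1 it was -0.34.

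Manf, a small secreted ER protein that is induced by unfolded protein and protects stressed cells, had the smallest p of all members. Its log2 signal (probe set 17855446) was 8.09 and 8.16 with ormeloxifene and 8.54 and 8.47 with vehicle. The arrays of a group lay close together and the groups did not overlap. The difference was -0.38 ± 0.20, or 1.30-fold lower, with an unadjusted p of 0.103 by limma, and it was -0.45 within number 1 and -0.30 within number 2. It was among the members that did not rest on vehicle replicate 2, being -0.41 without it.

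Hsp90b1 (probe set 17834768), which folds integrins and Toll-like receptors, had signals of 9.13 and 9.59 with ormeloxifene and 9.44 and 10.18 with vehicle. The replicates of each group lay far apart and the groups overlapped, with vehicle replicate 2 well above the rest. The difference was -0.45 ± 0.30, with -0.31 within number 1 and -0.59 within number 2. Replicate 2 lay above replicate 1 in both groups. Without vehicle replicate 2 the difference was -0.08, whereas without vehicle replicate 1 it was -0.82. Hyou1 (probe set 17843596) was 8.03 and 7.50 with ormeloxifene and 8.17 and 8.00 with vehicle, a difference of -0.32 ± 0.25. Here ormeloxifene replicate 2 was the low array, and without it the difference was -0.06.

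Hspa5, which encodes BiP, the main Hsp70 of the ER and the usual marker of its stress response, was 10.84 and 10.89 with ormeloxifene and 11.04 and 11.06 with vehicle. The groups did not overlap, the replicates agreed closely, and the difference was small at -0.19 ± 0.20. It was -0.20 within number 1 and -0.18 within number 2, and -0.18 without vehicle replicate 2. The J-domain cochaperones of BiP differed by -0.25 (Dnajc10), -0.17 (Dnajb11), -0.13 (Dnajc3) and -0.12 (Dnajb9), and the groups did not overlap for Dnajc10 and Dnajb11. Sdf2l1, which works with Dnajb11, differed by -0.17. Creld2, a secreted ER protein with isomerase activity, differed by -0.31, from 0.12 within number 1 to -0.75 within number 2, and by 0.02 without vehicle replicate 2.

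The lectin chaperones, which hold newly made glycoproteins in a folding cycle, had differences near 0. Calreticulin (Calr, probe set 17728701) was 10.74 and 10.26 with ormeloxifene and 10.47 and 10.54 with vehicle. The vehicle arrays lay between the ormeloxifene arrays, and the difference was 0.00 ± 0.24, with opposite signs of equal size within the numbers (0.28 and -0.28). Calnexin (Canx) was 10.21 and 9.96 with ormeloxifene and 9.93 and 10.16 with vehicle, a difference of 0.04 ± 0.22. Uggt1, which marks misfolded glycoproteins for another round with these lectins, was 7.62 and 7.79 with ormeloxifene and 7.53 and 7.99 with vehicle (-0.05 ± 0.24). On the values as deposited, or with arrays centred on their medians, Calr and Canx lay just below 0 instead, between -0.03 and -0.07, and without vehicle replicate 2 all 3 genes were higher.

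Among the 9 enzymes that form and rearrange disulphide bonds, 5 were lower and 4 higher, at a median of -0.13, and 7 had their highest value in vehicle replicate 2. Without that array 4 were lower and 5 higher, at a median of 0.00. On the values as deposited and with centred arrays 7 were lower and 2 higher, since Pdia3 and P4hb then lay below 0 (-0.05 and -0.02 as deposited). Pdia4 (probe set 17791157) was 8.96 and 8.88 with ormeloxifene and 9.10 and 9.43 with vehicle (-0.34 ± 0.22). Pdia6 (probe set 17825345), which also damps IRE1, was 9.03 and 8.85 with ormeloxifene and 9.07 and 9.46 with vehicle (-0.33 ± 0.23). Txndc5 (probe set 17715182), an isomerase active in collagen folding, was 8.67 and 8.66 with ormeloxifene and 8.72 and 9.22 with vehicle (-0.31 ± 0.24).

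In these isomerases the groups did not overlap, but vehicle replicate 2 stood apart above the other arrays. Within number 1 they differed by -0.14 (Pdia4), -0.04 (Pdia6) and -0.05 (Txndc5), and within number 2 by -0.54, -0.62 and -0.56. Without vehicle replicate 2 the differences were -0.18, -0.14 and -0.05. A near copy of Pdia6 in the annotation, Pdia6l1, differed by -0.18 on its own probe set, and how far their probes are shared was not tested.

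The isomerases Pdia3, which serves the lectin cycle, P4hb, which is also the beta subunit of collagen prolyl hydroxylase, and Pdia5 differed by 0.02, 0.04 and 0.09. Txndc11, a membrane-bound thioredoxin-domain protein of the ER, differed by -0.13. Of the oxidases that recharge the isomerases, Ero1a differed by -0.18 and Ero1b by 0.07. Both ER prolyl isomerases had differences near 0: Fkbp2 was 5.66 and 5.37 with ormeloxifene and 5.42 and 5.67 with vehicle (-0.03 ± 0.22). Fkbp11 was 7.64 and 7.39 with ormeloxifene and 7.58 and 7.51 with vehicle (-0.03 ± 0.21). In each the groups overlapped.

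Genes of the channel and of its partner complex were lower in 7 of 7, by small amounts from -0.05 (Sec63) to -0.20 (Sec61b), at a median of -0.14. Sec61a1, the pore of the channel, was 9.51 and 9.42 with ormeloxifene and 9.64 and 9.67 with vehicle, a difference of -0.19 ± 0.20 with groups that did not overlap. Sec61b, the small beta subunit, was 9.89 and 9.40 with ormeloxifene and 9.89 and 9.80 with vehicle (-0.20 ± 0.24). That difference came from ormeloxifene replicate 2, the low array, and was 0.05 without it.

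Among the subunits of the translocon-associated complex, Ssr1 was 7.90 and 7.98 with ormeloxifene and 7.96 and 8.24 with vehicle (-0.16 ± 0.21), while Ssr2 differed by -0.12 and Ssr3 by -0.14. Without vehicle replicate 2 they were -0.02, -0.22 and -0.09. For Sec62, which with Sec63 serves proteins that enter after their synthesis, the difference was -0.07. Without vehicle replicate 2 the group's median was -0.09, with 6 of 7 lower.

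Genes of ER-associated degradation, which extracts misfolded proteins to the cytosol, were split evenly, 5 lower and 5 higher at a median of -0.03; without vehicle replicate 1 it was -0.10 and without vehicle replicate 2 it was 0.04. Derl1 (probe set 17837429), a channel component of the retrotranslocation machinery, was 7.54 and 7.22 with ormeloxifene and 7.86 and 7.49 with vehicle. Number 1 lay above number 2 in both groups, so that the groups overlapped, and the difference was -0.29 ± 0.24, with -0.32 within number 1 and -0.26 within number 2. With an array left out and no term for the number in the fit, the difference also holds the step between the numbers. It then ran from -0.10 without vehicle replicate 1 and -0.13 without ormeloxifene replicate 2 to -0.45 without ormeloxifene replicate 1 and -0.48 without vehicle replicate 2. Edem3, a mannosidase that marks glycoproteins for removal, was 7.44 and 7.37 with ormeloxifene and 7.69 and 7.51 with vehicle (-0.19 ± 0.21).

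Derl3 (probe set 17757820), a Derlin typical of professional secretory cells, stood on the other side. It was 6.35 and 5.90 with ormeloxifene and 5.73 and 5.88 with vehicle, a difference of 0.32 ± 0.24. The groups did not overlap, yet 5.90 and 5.88 are almost equal, and without ormeloxifene replicate 1 the difference was 0.10. The ubiquitin ligase Syvn1 and its partner Sel1l differed by -0.06 and 0.01, the lectin Os9 by 0.05, and Edem1 and Edem2, relatives of Edem3, by -0.13 and 0.02. Herpud1, a strongly stress-inducible part of the ligase complex, differed by 0.03, and Selenos, a selenoprotein that recruits the extracting ATPase, by -0.14.

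The sensors themselves showed no detectable difference. Ern1 was 7.20 and 7.05 with ormeloxifene and 6.81 and 7.26 with vehicle, a difference of 0.09 ± 0.24 that was 0.39 within number 1 and -0.22 within number 2. Eif2ak3 was 6.78 and 7.12 with ormeloxifene and 7.07 and 7.25 with vehicle (-0.21 ± 0.22), and the difference ran from -0.04 without ormeloxifene replicate 1 to -0.38 without ormeloxifene replicate 2. Atf6 was 7.96 and 7.83 with ormeloxifene and 7.98 and 7.81 with vehicle, which gave -0.00 ± 0.21.

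The arrays of these sensors were interleaved between the groups, and the 95% intervals were -0.46 to 0.64 for Ern1, -0.73 to 0.31 for Eif2ak3 and -0.49 to 0.48 for Atf6. For Atf6b, the paralogue of Atf6, the values were 7.79 and 7.77 with ormeloxifene and 7.97 and 7.78 with vehicle (-0.10 ± 0.21). Xbp1, the transcription factor downstream of IRE1, was 10.17 and 10.24 with ormeloxifene and 10.06 and 10.37 with vehicle. Its difference was -0.01 ± 0.22, with an interval from -0.52 to 0.49 for spliced and unspliced messenger together.

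The OASIS family factors Creb3l1 and Creb3l2, ATF6-like proteins held in the ER membrane that act in secretory and matrix-producing cells, had differences of opposite sign. Creb3l1 (probe set 17774623) was 8.42 and 8.56 with ormeloxifene and 8.37 and 9.16 with vehicle. Vehicle replicate 2 stood alone above the other arrays, so the difference of -0.27 ± 0.29 became 0.12 without it. Creb3l2 (probe set 17790649) was 9.21 and 8.86 with ormeloxifene and 8.75 and 8.68 with vehicle. The groups did not overlap, and the difference of 0.32 ± 0.22 was 0.46 within number 1 and 0.18 within number 2, and 0.15 without ormeloxifene replicate 1. Whether the pair differ from each other in response was not tested.

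**Figure D4:**
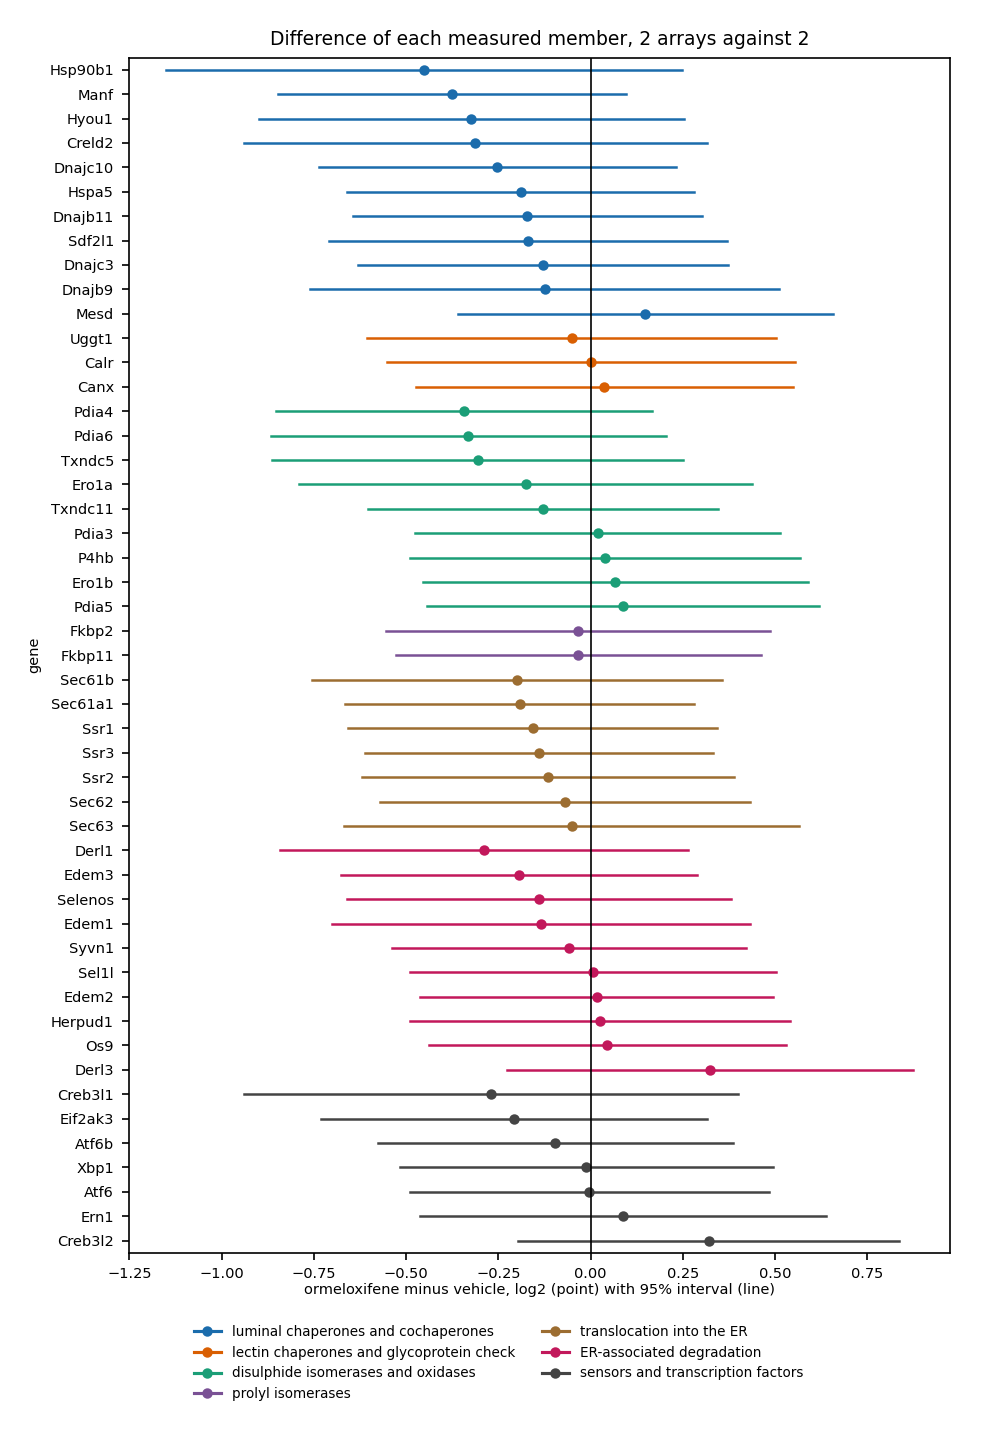
Difference of each measured member, ormeloxifene minus vehicle in log2, as a point with its 95% interval from limma (line), ordered within each role. All 49 intervals cross 0; the points run from -0.45 for Hsp90b1 to 0.32 for Derl3 and Creb3l2.

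The members that carry an ERSE had differences of both signs. Of the 9, 5 were lower and 4 higher, from -0.45 for Hsp90b1 to 0.32 for Derl3, at a median of -0.01. The other 31 members with a promoter entry had a median of -0.12, with 24 lower. On the values as deposited 7 of the 9 were lower, at a median of -0.08 beside -0.13 for the other 31, because Calr and Canx then lay below 0. Without vehicle replicate 2, 2 of the 9 were lower, and without vehicle replicate 1, 8 were. The promoters of Hspa5 and Calr shown above both hold the element, with differences of -0.19 and 0.00. With no member called, these values are a description of the promoters and were not tested.

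Genes that work next to the members were read from 5 further lists. In the PERK and ATF4 branch 16 of 21 measured genes were lower and 5 higher, at a median of -0.10 that ran from -0.08 to -0.16 as each array was left out. At an unadjusted p under 0.05 stood 3, all lower, and by limma 0 passed the adjusted threshold. Asns, the asparagine synthetase and a target of ATF4, was 7.16 and 7.07 with ormeloxifene and 7.87 and 7.83 with vehicle (-0.74 ± 0.20). Slc7a11, the cystine transporter, was 6.58 and 5.84 with ormeloxifene and 7.55 and 6.84 with vehicle (-0.98 ± 0.33). Slc7a5, a carrier of large neutral amino acids, was 6.82 and 7.01 with ormeloxifene and 7.54 and 7.57 with vehicle (-0.64 ± 0.21). The groups did not overlap in these amino acid genes. Each differed by similar amounts within both numbers: -0.71 and -0.76 for Asns, -0.97 and -0.99 for Slc7a11 and -0.72 and -0.56 for Slc7a5. Other genes of amino acid supply and tRNA charging in the list were of both signs. Psat1 was higher by 0.27 with groups that did not overlap. Phgdh differed by -0.01, Slc3a2 by -0.07 (0.16 within number 1 and -0.30 within number 2), Aars1 by -0.26 and Wars1 by -0.20. Atf4 itself differed by -0.14. The stress-inducible genes of the list were of both signs: Atf3 differed by -0.31, Cebpb by -0.24, Ppp1r15a by -0.11, Ddit3 and Chac1 by -0.05 each, Trib3 by 0.15 and Nupr1 by 0.28. Of these genes and Atf4, the groups did not overlap for Atf3, Ppp1r15a and Atf4, and Atf3 was -0.32 within number 1 and -0.31 within number 2.

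The heat shock list, of cytosolic chaperones, their regulators and the mitochondrial pair Hspd1 and Hspe1, was lower in 13 of 13 measured genes, at a median of -0.23. Hspa1a, Hspa1b and Hsp90aa1 were also listed but had no matched probe set. Without ormeloxifene replicate 2 the median was -0.14, and without vehicle replicate 2 it was -0.26; in either case 10 were lower and 3 higher. Without the mitochondrial pair, 11 of 11 were lower at a median of -0.10, and 8 of 11 with either of those arrays left out. The nearest to a call were Hsph1 (-0.60 ± 0.20), the mitochondrial cochaperonin Hspe1 (-0.52 ± 0.24) and Dnajb1 (-0.43 ± 0.25), and by limma 0 passed the adjusted threshold while 1, Hsph1, had an unadjusted p under 0.05. The oligosaccharyltransferase, which adds glycans in the ER, was lower in 8 of 10 genes at a median of -0.09, and without vehicle replicate 2 in 5 of 10 at a median of -0.02. Leaving out vehicle replicate 1 gave -0.16, and leaving out ormeloxifene replicate 2 gave -0.14. Its genes of smallest p were Ostc (-0.52 ± 0.23), Dad1 (-0.22 ± 0.24) and Rpn2 (-0.15 ± 0.20).

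For signal peptidase and the signal recognition particle, 8 of 11 genes were lower at a median of -0.08. Leaving out ormeloxifene replicate 1 gave -0.00 and leaving out vehicle replicate 1 gave -0.25. Sec11c, a catalytic subunit of the peptidase, was -0.67 ± 0.24, Spcs3 -0.33 ± 0.22 and Srp9 -0.20 ± 0.21. In the list of ER to Golgi transport 12 of 16 genes were lower, at a median of -0.08, with Sar1a at -0.24 ± 0.21, Sec24a at -0.27 ± 0.23 and Sec24d at -0.17 ± 0.21. The median of the transport list was 0.03 without vehicle replicate 2, -0.02 without ormeloxifene replicate 2 and -0.17 without vehicle replicate 1. Of these last 3 lists 0 genes passed the adjusted threshold by limma, and Sec11c alone had an unadjusted p under 0.05.

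**Figure D5:**
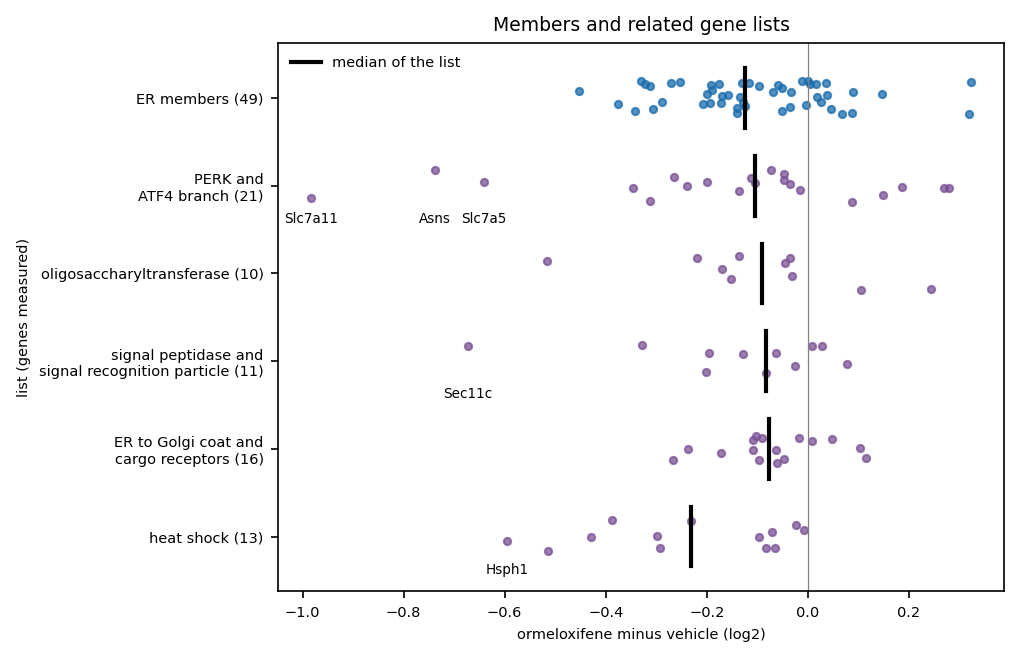
Difference, ormeloxifene minus vehicle in log2, of the 49 ER members (top row) and of the genes measured in 5 related lists; the black bar is the median of each list. The ER members lie between -0.45 and 0.32, while Slc7a11, Asns, Slc7a5, Sec11c and Hsph1 reach -0.60 to -0.98.

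Markers of the cell types that uterine tissue can hold were read on the same arrays. For smooth muscle, 7 of 7 markers had a higher ormeloxifene mean, at a median of 0.34; leaving out vehicle replicate 2 gave 0.13 and leaving out ormeloxifene replicate 1 gave 0.21. Their summed linear signal was 14190 and 12730 with ormeloxifene and 11650 and 10540 with vehicle, lowest in vehicle replicate 2. Endothelial markers were higher in 4 of 4 (median 0.21, and 0.06 without vehicle replicate 1) and markers of macrophages and other leukocytes in 6 of 7 (median 0.17, and 0.03 without ormeloxifene replicate 2). Stromal markers were higher in 5 of 8, with sums of 20530 and 18920 against 18340 and 19130, and mast cell markers in 2 of 4. Of 2 red cell markers, the haemoglobin gene Hba-a1 differed by -0.73 ± 0.21 (unadjusted p of 0.0095 by limma, adjusted p of 1.00) and Slc4a1 by 0.08.

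Epithelial markers were higher in 5 of 10, with sums of 2603 and 2532 against 2278 and 2695. Plasma cells are rich in many of the same ER proteins, and their markers were higher in 3 of 6, with sums of 543.5 and 520.4 against 498.4 and 556.6. Both sums were highest in vehicle replicate 2, which was the highest array for 2 of the 10 epithelial and 1 of the 6 plasma cell markers. Without Cldn3, which makes up 44% of the epithelial sum there, that array had the lowest sum (1509, against 1551 to 1591). Without Jchain it had the lowest plasma cell sum (234.4, against 245.1 to 256.2), but that order too turns on single genes. Cd79a was 6.25 and 5.34 with ormeloxifene and 6.64 and 5.64 with vehicle, while Mzb1 was 5.02 and 5.99 with ormeloxifene and 4.37 and 5.73 with vehicle. The sum over the ER members was 23960 in vehicle replicate 2 and 20430 to 21530 on the other arrays, and without the brightest member, Pdia3, 21040 against 17810 to 18730. The part of cell makeup in the members' values was not tested. In tissue RNA, fewer cells of a type and less RNA per cell cannot be told apart.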

How the data were processed

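Total RNA (100 ng) was labelled and measured on 4 Affymetrix whole-transcript arrays. The deposited table holds log2 signals for 36685 probe sets, which the authors made with Affymetrix Expression Console, per the submitters' processing notes. Software version, summary method and genome build: not given in the sources used here. Column medians differed (5.67 to 5.93), so quantile normalization was applied over all probe sets. Probe sets with a single symbol in GEO's platform annotation (18511) were updated by gene number to GRCr8 (18394 matched), and the brightest was kept per gene (18166 genes).

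Differences came from limma 3.58.1 in R 4.3.3 (lmFit and eBayes, 2-sided, 7.55 degrees of freedom after moderation), tested on simulated data. The number of arrays limits the precision. Members, lists and tests were chosen with earlier results of these data known. Array values are given for each sensor and transcription factor and for the 3 members of smallest p in each other role, and Hspa5 was added as the usual marker. Related lists give the 3 genes of smallest p. Atf4 and the stress-inducible genes beside it, Psat1, Phgdh, Slc3a2, Aars1, Wars1, Hspd1, Hba-a1, Cd79a and Mzb1 were added after their values were seen.

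Exactly equal deposited values occurred 488 and 551 times between arrays of the same replicate number and 0 times between other pairs; the labels name no batch. The alternatives were other scaling, probe set choice, filters, variance model, the number as a block and each array left out. Sums without the brightest gene, the heat shock list without its mitochondrial pair and the ERSE counts by setting were chosen after seeing the data.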

Additional observations from a re-analysis of the deposited data

How the results depend on the processing

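The count of 0 called members held under all 12 alternatives by limma; with the replicate number as a block (replicate block) 1 member, Hsp90b1, had an unadjusted p under 0.05 (adjusted p = 0.701), and so it did when that block was fitted to deposited values (adjusted p = 0.654). Of all 18166 genes, 548 were lower and 680 higher at that unadjusted threshold by limma with the block. On deposited values with the block, 596 were lower and 567 higher. Without vehicle replicate 1, the lowest differences were -0.82 (Hsp90b1), -0.66 (Creb3l1) and -0.64 (Creld2). The members' median difference of -0.12 ran from -0.16 to 0.00 when an array was left out and lay between -0.12 and -0.15 otherwise. Across genes, the step from replicate 1 to 2 in one group correlated with that in the other at 0.475, and genes are not independent replicates. Over all genes the number called was 0, and it was 1 with median-centred arrays or averaged probe sets, 4 without genes under the 25th percentile or with a trended robust variance, 5 with the block, 84 when the block was fitted to deposited values, and from 0 to 3 with an array left out; the cause was not tested.

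Of 24 members tried singly, 10 changed sign in some setting, 23 times in all. Calr and Canx were -0.05 and -0.03 on the values as deposited, with and without the block, and -0.07 and -0.05 with centred arrays. When each array was left out in turn, the range was -0.24 to 0.24 for Calr, -0.09 to 0.16 for Canx, -0.28 to 0.18 for Uggt1 and -0.17 to 0.14 for Xbp1. It was -0.09 to 0.08 for Atf6, -0.14 to 0.31 for Ern1 and -0.66 to 0.12 for Creb3l1. For Fkbp2 it was -0.18 to 0.11, for Fkbp11 -0.16 to 0.09 and for Sec61b -0.44 to 0.05. A group left with 1 array is assumed to vary as much as the other group, and these fits carried no term for the replicate number.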
